A study of Mus musculus with 4 samples.

Results

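Rab proteins are small GTPases that give each vesicle compartment of a cell its address. The Rab genes were taken from the count tables by their symbols (Rab followed by a number, with at most 1 letter and 1 more digit), which gave 55 of the 16342 genes in any table. The cells were CD11b-positive cells sorted from the corpus callosum; the mice were male C57BL/6, at 13 weeks of age. CD11b is a surface integrin of myeloid cells. Of the 4 libraries, 2 came from mice that were not treated (week 0, replicates 1 and 2). The other 2 came from mice given cuprizone (week 5, replicates 1 and 2), a copper chelator that leads to loss of oligodendrocytes and myelin. The labels give no genotype other than the strain, and do not say whether a library is 1 animal or a pool, so the p-values measure the spread between these libraries, which may be technical.

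A Rab protein is switched on when an exchange factor loads it with GTP and switched off by a GTPase-activating protein. In its active form it sits on a membrane by lipids attached to cysteines at its end, and recruits effectors that move, tether or fuse vesicles. In phagocytes such as microglia, the macrophages of brain tissue, Rab5 proteins mark the early endosome and young phagosome, Rab7 the late endosome and the phagosome that fuses with lysosomes, and Rab11 the recycling endosome.

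The count tables held between 2415001 and 6559032 unique molecular identifiers (UMIs, each marking 1 captured transcript) over 1000 barcodes each. Clusters that carried microglia markers, called microglia-like, held 902 and 898 cells at week 0 and 911 and 853 at week 5, which was 93.3% to 99.2% of the cells of a library. Their median depth was 1499.5 and 3912.5 UMIs at week 0 and 6117 and 2332 at week 5. The clusters that held most of them differed between libraries, also within a time. At week 0 they were clusters 4, 0 and 5 in replicate 1 (531, 148 and 145 cells) and 0 and 1 in replicate 2 (387 and 338). At week 5 they were clusters 2, 8 and 4 in replicate 1 (332, 189 and 154) and 2, 4 and 5 in replicate 2 (260, 202 and 161). Clusters 4 and 5 were shallow (a median of 1266 and 1147.5 UMIs), with AY036118 and Malat1 among the leading genes of each. Cluster 8, led by Spp1, Fabp5, Apoc4, Apoc1 and Cst7 and called the Spp1-led cluster here, held 20.7% of the microglia-like cells and 42.4% of their UMIs in week 5 replicate 1, but 4.69% and 7.12% in replicate 2, and 1 cell at week 0. Library pairs shared 0 to 2 cell barcodes.

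In microglia-like cells, 1 Rab gene changed after cuprizone: Rab7b, which was close to absent at week 0 and rose in both week 5 libraries. No other Rab gene passed the test. UMIs were summed per library and tested over all genes with edgeR, and a gene with an adjusted p under 0.05 is called changed. Of the 55 Rab genes, 42 passed the filter on low counts, and of these 1 was called higher and 0 lower. An unadjusted edgeR p under 0.05 was found for 3 of the 42, beside 1493 of all 11002 genes tested. Over all 11002 genes tested 3.37% were called, 3.04% higher and 0.327% lower, so that the share among Rab genes was near that of all genes. The median log2 fold change was -0.05 for the Rab genes and -0.02 for all genes, and 36 of 42 Rab genes lay within 0.5 of 0 on the log2 scale (85.7%, against 77.7% of all genes). Without Rab7b, the log2 fold changes ran from -0.93 to 0.36, and 34 of 41 had a 95% interval within 1 of 0. Both week 5 libraries lay above both week 0 libraries for 4 Rab genes and below them for 13, beside 20.6% and 21.8% of all genes tested.

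**Figure D1:**
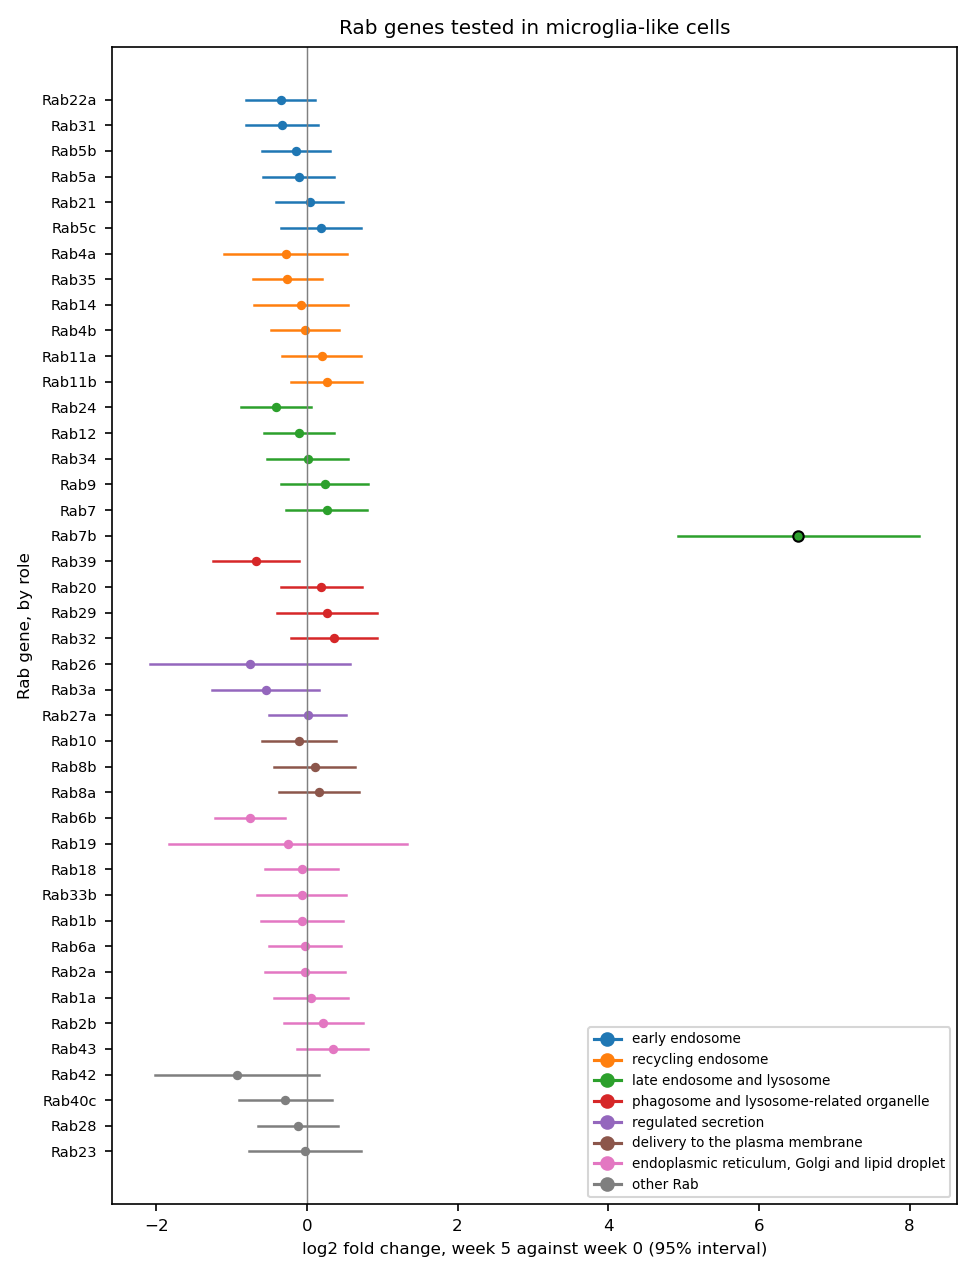
Log2 fold change, week 5 against week 0, of the 42 Rab genes tested in microglia-like cells (points) with the 95% interval of the edgeR fit (lines), grouped and coloured by role; the black outline marks the gene called. Rab7b stands at 6.52, and the other 41 lie between -0.93 and 0.36.

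The summed level of all 55 Rab genes was 2673 and 2961 CPM (relative to the effective size of the library) at week 0 and 2951 and 2598 at week 5, a mean of 2817 ± 204 against 2775 ± 250 (SD, n = 2 each). These values overlapped. As a share of all UMIs of the microglia-like cells, which is not scaled for composition, the sum was 0.291% and 0.318% at week 0 and 0.245% and 0.265% at week 5, lower in both week 5 libraries. A sum over cells does not by itself tell apart fewer cells that use a gene and less of its RNA per cell. Within cluster 0 the summed Rab level was 3221 and 3243 CPM of total UMIs at week 0 and 3040 and 3033 at week 5. Within cluster 5 it was 2457 and 2132 against 2298 and 2171, which overlapped. Levels by cell and by cluster are given below for some genes.

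Rab7b acts at the late endosome, where it is known for transport back to the trans-Golgi network and, in macrophages, for limiting signals of Toll-like receptors. The gene lies on the plus strand at chr1:131688695-131715439 (GRCm38, GENCODE M21), with no annotated gene overlapping it. It is a relative of Rab7, and Rab6b, a Golgi member, had the second smallest p of the family. The ends of the coding sequences of both pairs are shown because reads of close relatives could be mixed up in counting. The last 60 coding bases are printed 5′ to 3′ with the stop codon last and the cysteine codons, which carry the lipids, in capitals.
Rab7: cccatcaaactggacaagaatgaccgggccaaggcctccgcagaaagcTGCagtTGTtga
Rab7b: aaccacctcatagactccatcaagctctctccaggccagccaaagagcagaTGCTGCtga
Rab6a: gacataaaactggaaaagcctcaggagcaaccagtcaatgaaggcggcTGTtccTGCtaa
Rab6b: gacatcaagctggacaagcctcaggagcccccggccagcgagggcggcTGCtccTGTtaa
Each end holds 2 cysteine codons, next to each other in Rab7b and with 1 codon between them in the other genes. Over the whole coding sequence (624 bases in Rab7, 600 in Rab7b) 62.5% of 594 aligned bases were the same in Rab7 and Rab7b, and 78.5% in Rab6a and Rab6b. The tables count 3′ ends, which were not compared here.

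Rab7b was counted with 2 and 0 UMIs in week 0 replicates 1 and 2, and with 199 and 56 in week 5 replicates 1 and 2. Its level was 0.826 and 0 CPM at week 0, where a count of 0 allows up to 0.635 CPM in replicate 2, and 39.1 and 18.3 CPM at week 5. The groups did not overlap, and week 5 replicate 1 was the higher of the week 5 libraries. The summed counts gave a ratio of 92.35 between week 5 and week 0 (95% counting interval 25.3 to 767). For replicate 1 of week 5 alone the ratio against both week 0 libraries was 107.4 (29.4 to 893) and for replicate 2 it was 61.6 (16.3 to 521). The fitted log2 fold change was 6.52 (SE 0.73, 95% interval 4.93 to 8.12, edgeR adjusted p = 0.000483); with so few UMIs at week 0 it depends on the prior count. Rab7b was called in 14 of 14 other analyses.

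The Rab7b difference was present without the Spp1-led cluster, at 94 UMIs against 2 (ratio 49.2, 13.2 to 412). It was not spread evenly over the other clusters. In week 5 replicates 1 and 2, 38 and 25 of the 94 UMIs came from cluster 3, led by Lilrb4a and Lpl. Cluster 2 gave 11 and 11. Cluster 3 held 6 and 5 cells at week 0, with 1 Rab7b UMI in replicate 1. In all cells, which needs no cluster names, Rab7b had 277 UMIs against 8 and the ratio was 24.2 (12.1 to 56.5). Among those UMIs were some of border-associated macrophage-like cells, which carried Rab7b at both times, with 4 and 2 UMIs at week 0 and 7 and 9 at week 5. Microglia-like cells with at least 1000 UMIs were also thinned to 1000, which left out 145, 69, 60 and 101 cells in the order of the libraries. The Rab7b counts were then 0, 0, 15 and 20. Both week 5 libraries were above 0 at equal depth as well. With 2 and 0 UMIs at week 0 before thinning, the thinned counts of week 0 could hardly differ from 0. Between the week 5 libraries the order turned, with replicate 2 the higher after thinning.

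Counted by cell, at least 1 Rab7b UMI was present at week 0 in 2 of 902 microglia-like cells of replicate 1 and 0 of 898 of replicate 2 (0.222%, and a limit of 0.334% for 0 cells) and in 102 of 911 and 38 of 853 at week 5 (11.2%, exact binomial 95% interval 9.22% to 13.4%, and 4.46%, 3.17% to 6.06%). Thinned to 1000 UMIs, which kept 757, 829, 851 and 752 cells, the shares were 0%, 0%, 1.76% and 2.26%. These intervals cover counting error of cells only.

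**Figure D2:**
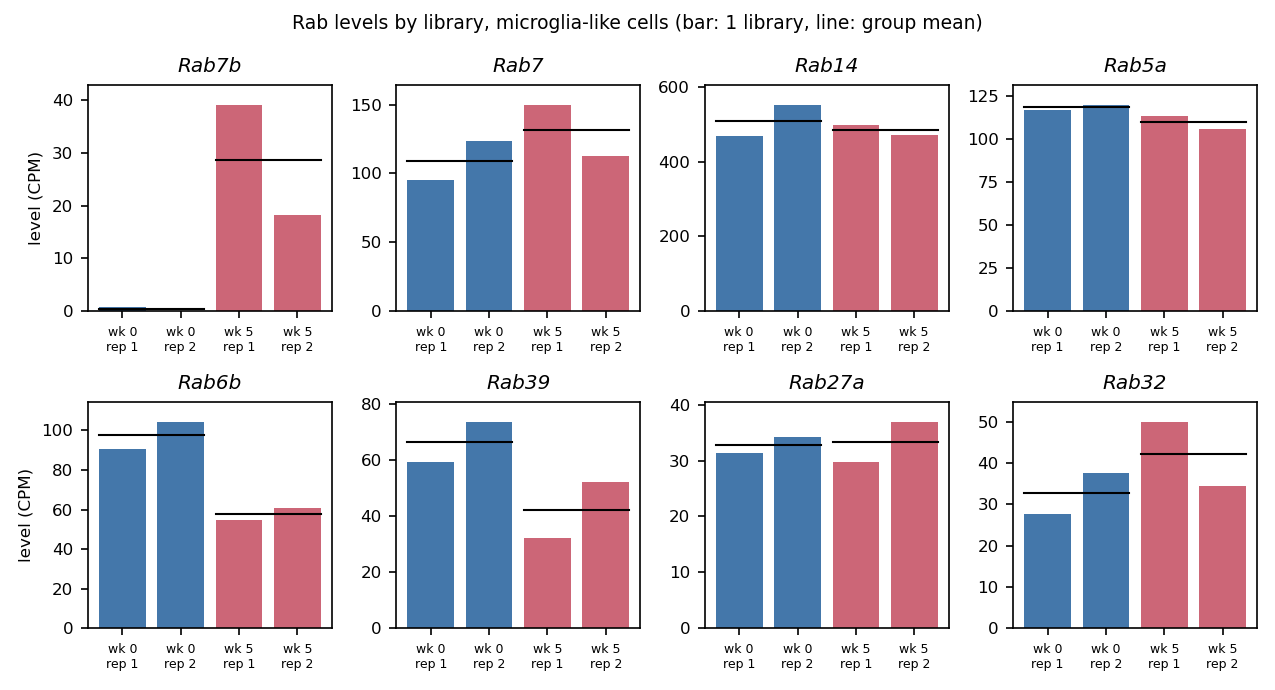
Level in CPM (vertical axes from 0) of 8 Rab genes in microglia-like cells of each library, 1 bar per library (blue for week 0, red for week 5), with a line at each group's mean. Rab7b is at 39.1 and 18.3 CPM at week 5 and under 1 at week 0, Rab6b and Rab39 are lower in both week 5 libraries, and the other panels show smaller differences.

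At week 5 Rab7b was uneven over the microglia-like clusters. It is a description, since the clusters were built from the same cells. The share of cells with a UMI was highest in the Spp1-led cluster, 72 of 189 cells in replicate 1 (38.1%) and 11 of 40 in replicate 2 (27.5%). Cluster 3, led by Lilrb4a and Lpl, followed with 19 of 84 (22.6%) and 15 of 83 (18.1%). Relative to UMIs the order of the 2 turned: the Spp1-led cluster, whose cells are deep, had 55.7 and 74.6 CPM of total UMIs, and cluster 3 had 92.4 and 101. Cluster 2, the largest at week 5, had 4.89 and 7.25 CPM, with a UMI in 2.41% and 3.08% of its cells. Clusters 0 and 1 had 0 UMIs over 133 week 5 cells, which allows up to 4.18 CPM, a limit that lay between the levels of cluster 4 (4.85 and 3.83 CPM). The part of free RNA in the droplets in these low levels was not tested.

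**Figure D3:**
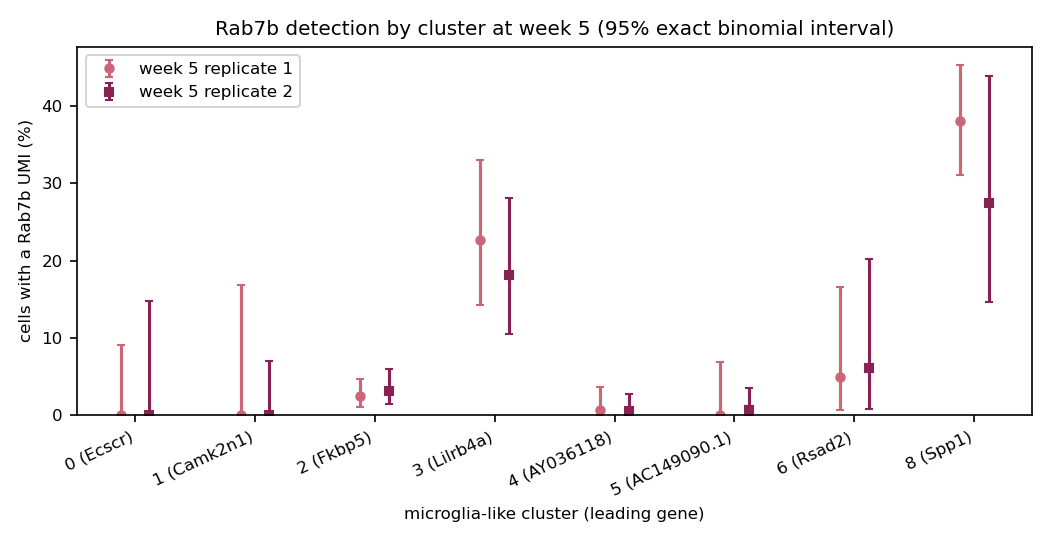
Share of cells (percent) with at least 1 Rab7b UMI in each microglia-like cluster at week 5, for both replicates, with exact binomial 95% intervals; the horizontal axis gives the cluster and its leading gene. Cells of clusters 3 and 8 stand highest in both replicates, and clusters 0 and 1 are at 0.

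The border-associated macrophage-like cells (75 in all: 16, 5, 29 and 25 by library) carried Rab7b at both times: 52.0 CPM of total UMIs at week 0 (6 UMIs, Poisson 95% interval 19.1 to 113) and 55.6 at week 5 (16 UMIs, 31.8 to 90.4). The summed level of their 12 markers in microglia-like cells was 386 and 257 CPM at week 0 and 254 and 262 at week 5. By replicate, 6 and 4 of the 12 stood at 0 at week 0, and 0 and 4 at week 5. The summed level of the 10 monocyte markers was higher at week 5, with 12.1 and 13.4 CPM at week 0 and 147 and 38.2 at week 5. Of the 10, 9 were detected in at least 1 library, but not all of them rose. F10 stood at 0 in all 4 libraries, and Hp at 0 in both week 5 libraries. Ly6c2 was seen in week 5 replicate 2 only, and Chil3 in week 5 replicate 1 only. Fn1, also on the list, was a leading gene of the Spp1-led cluster when ranked among genes in at least 25% of its cells. The summed level of 8 endothelial or mural markers went the same way, from 1.80 and 0.909 to 41.1 and 9.29 CPM, with 3 detected and Cldn5, Ly6c1, Slco1a4, Pdgfrb and Rgs5 at 0 throughout. The part of cells of these classes in the result was not tested.

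Among the late endosome and lysosome members, 6 of 7 were tested, 1 was called higher and 0 lower, with a median log2 fold change of 0.13. Rab7, which drives fusion with lysosomes, was at 94.9 and 123 CPM at week 0 and 150 and 113 at week 5, a log2 fold change of 0.26 (SE 0.24, 95% interval -0.27 to 0.80, edgeR adjusted p = 0.756). The highest level was in week 5 replicate 1 and the groups overlapped. Rab9, which returns receptors to the trans-Golgi network, was at 25.2 and 25.8 CPM against 36.1 and 23.5, also high in week 5 replicate 1 alone. Rab24, linked to autophagy, was at 76.4 and 70.0 against 49.9 and 60.6 CPM, a log2 fold change of -0.41 (adjusted p = 0.466) with no overlap of the groups. Rab12 and Rab34 had log2 fold changes of -0.10 and 0.01, with overlapping groups.

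Within week 5, Rab7 was higher in the Spp1-led cluster than in the other microglia-like cells, 148 against 107 CPM of total UMIs in replicate 1 and 149 against 112 in replicate 2. It was lower in the shallow clusters 4 and 5, at 26.4 to 58.1 CPM over the 4 libraries, than in clusters 0 and 1 (95.4 to 147). Depth differs between these clusters (a median of 1266 and 1147.5 UMIs against 4105 and 5768), and its part in this was not tested.

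The early endosome held 6 members, all tested, with 0 called in either direction and a median log2 fold change of -0.13. Rab5a and Rab5c, which dock and fuse early endosomes, were at 117 and 120 against 113 and 106 CPM, and at 96.6 and 108 against 138 and 94.2 CPM. Rab5a was lower in both week 5 libraries but not called (log2 fold change -0.11, adjusted p = 0.910), and Rab5c was highest in week 5 replicate 1. Rab21, which carries integrins, varied least, at 79.7, 81.9, 80.9 and 85.4 CPM. Rab22a, which sorts cargo in early endosomes, and its close relative Rab31 lay below week 0 in both week 5 libraries, with log2 fold changes of -0.35 (adjusted p = 0.560) and -0.33 (0.624), neither called.

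The recycling endosome members were led by Rab14, which moves cargo between endosomes and the Golgi and was the most abundant Rab gene in all 4 libraries. Each UMI stands for 1 transcript end, so levels of different genes were compared without scaling by length. Rab14 was at 468 and 551 CPM at week 0 and 497 and 471 at week 5 (510 ± 58.6 against 484 ± 18.2, SD, n = 2), and took 17.8% of the mean Rab level. Its log2 fold change was -0.08 (95% interval -0.70 to 0.55). Rab11a, of slow recycling, was at 105 and 102 against 141 and 96.2 CPM, and Rab11b at 54.5 and 62.4 against 77.3 and 63.2, without overlap but with a log2 fold change of 0.27 that was not called (edgeR adjusted p = 0.711). Rab4a, of fast recycling, was low, at 7.02 and 8.25 against 6.48 and 6.19 CPM. Of the 8 members 6 were tested and 0 were called; the median log2 fold change was -0.05.

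After Rab14 came Rab8b (149 ± 18.7 CPM at week 0 and 159 ± 32.1 at week 5, SD, n = 2), Rab2a, Rab1a, Rab10, Rab7, Rab5a, Rab11a and Rab5c, with means over the 4 libraries from 154 down to 109 CPM. Apart from Rab2a and Rab1a, the order of neighbours from Rab8b to Rab5c changed between libraries. Rab2a was above Rab1a in all 4 libraries. The step from Rab14 to Rab8b was larger than the spread between libraries. The first 12 Rab genes held 62.5% of the mean Rab level.

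Of the 6 phagosome and lysosome-related members 4 were tested, 0 were called, and the median log2 fold change was 0.23. Rab20, which acts in phagosome maturation, was at 27.7 and 29.6 against 37.7 and 27.4 CPM. Rab32, of lysosome-related organelles, was at 27.7 and 37.7 against 49.9 and 34.6 CPM, the largest positive fold change after Rab7b (0.36, 95% interval -0.21 to 0.93) with overlapping groups. Rab39 (the gene of Rab39a), which acts in phagosome acidification, went the other way: 59.4 and 73.4 CPM at week 0, 32.2 and 52.2 at week 5, a log2 fold change of -0.68 (SE 0.26, 95% interval -1.25 to -0.11), and was not called (edgeR adjusted p = 0.247). It was called without week 5 replicate 2 (-1.004, adjusted p = 0.00193), while without week 5 replicate 1 the value was -0.349 (adjusted p = 0.858). A ribosomal pseudogene, Rps6-ps3, overlaps it on the same strand, and the sources used here do not give how such reads were counted.

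For regulated secretion 3 of 7 members were tested and 0 called, with a median log2 fold change of -0.55. Rab27a, which docks secretory lysosomes and exosome-bearing endosomes at the cell surface, was at 31.4 and 34.3 against 29.8 and 36.8 CPM, a log2 fold change of 0.01 (95% interval -0.50 to 0.52). Rab3a, of secretory vesicles, was at 11.6 and 13.1 against 7.46 and 9.78 CPM, and Rab26, of secretory granules, at 4.13 and 3.39 against 1.37 and 3.26, neither called. Without week 5 replicate 1 their log2 fold changes were -0.335 and -0.171, against -0.55 and -0.76 with all libraries, and that of Rab26 was -1.362 without week 5 replicate 2. Delivery to the plasma membrane was carried by Rab8a, Rab8b and Rab10, 3 of 4 members tested, 0 called, median log2 fold change 0.10. Rab10 was at 119 and 135 against 127 and 110 CPM, and a gene on its opposite strand, Rab10os, overlaps it.

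In the endoplasmic reticulum, Golgi and lipid droplet group, 10 of 12 members were tested, 0 were called and the median log2 fold change was -0.05. Rab1a, which carries vesicles from the endoplasmic reticulum to the Golgi, was at 118 and 132 against 140 and 121 CPM, and Rab2a, of the Golgi, at 135 and 170 against 167 and 135. Rab18, of lipid droplets, was at 69.8 and 93.7 against 79.3 and 77.3 CPM. Rab6a, which moves cargo within and out of the Golgi, was at 52.0 and 60.5 against 61.0 and 49.6 CPM (log2 fold change -0.03, 95% interval -0.50 to 0.45).

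Rab6b, a relative of Rab6a known mainly from neurons, was at 90.8 and 104 CPM at week 0 and 55.0 and 61.0 at week 5 (97.5 ± 9.39 against 58.0 ± 4.25, SD, n = 2). Its groups were further apart than the libraries within each, and the log2 fold change of -0.76 (SE 0.21, 95% interval -1.21 to -0.30) had an edgeR adjusted p of 0.0865, so that it was not called. It was called with library size as the only scaling (-0.98, adjusted p = 0.0313), without a gene filter (-0.76, 0.0379) and without week 5 replicate 2 (-0.78, 0.0171), and its adjusted p ran from 0.0171 to 0.721 over the other analyses. At equal depth, 8.85% and 8.93% of the cells had a Rab6b UMI at week 0 and 5.29% and 5.98% at week 5. The summed level of 5 neuron markers, all detected, was 34.6 and 13.0 CPM at week 0 and 12.5 and 25.6 at week 5, which overlapped. Another annotated gene, Gm37166, overlaps it on the same strand.

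The rises without overlap other than Rab7b and Rab11b were Rab43 (48.3 and 52.0 against 57.5 and 70.7 CPM, log2 fold change 0.35, adjusted p = 0.576) and Rab2b (22.7 and 23.9 against 29.6 and 24.5, 0.22, 0.804), neither called. The annotated genes Gm45140, Gm44423 and 9930120I10Rik overlap Rab43 on the same strand, and Traf7 overlaps Rab26 in the same way. How such reads were counted is not given. The lowest fitted value was that of Rab42 (7.02 and 8.25 against 2.36 and 6.19 CPM, log2 fold change -0.93, 95% interval -2.02 to 0.16, adjusted p = 0.485); it was -0.306 without week 5 replicate 1 and -1.648 without week 5 replicate 2, and not called in either. Of the 5 other Rab genes 4 were tested and 0 called, with a median of -0.20. The tested members whose levels are not listed here (Rab1b, Rab4b, Rab5b, Rab8a, Rab12, Rab19, Rab23, Rab28, Rab29, Rab33b, Rab34, Rab35 and Rab40c) had mean levels from 2.16 CPM for Rab19 to 69.4 for Rab4b and log2 fold changes from -0.29 for Rab40c to 0.27 for Rab29, and 0 were called.

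In the week 5 libraries, the Spp1-led cluster had a lower summed Rab level than the other microglia-like cells, 2073 against 2726 CPM of total UMIs in replicate 1 and 2112 against 2686 in replicate 2. The shallow clusters 4 and 5 were about as low at week 5, with 2253 and 2151 CPM in cluster 4 and 2298 and 2171 in cluster 5. This and the following values are descriptions. Of the 42 tested Rab genes, 24 were lower in that cluster in both libraries, 7 higher (Rab7b, Rab7, Rab5c, Rab8a, Rab11b, Rab32 and Rab34) and 11 mixed. This was 57.1% lower and 16.7% higher, beside 70.4% and 12.7% of all 11002 genes tested, so that most genes were lower in this cluster on the scale of total UMIs. Rab14 was at 307 against 490 CPM and 298 against 493. Rab6b was at 19.2 against 65.1 CPM and 23.3 against 65.0, and Rab39 at 9.98 against 39.1 and 14.0 against 56.1. Replicate 2 rests on few UMIs (5 of Rab6b and 3 of Rab39). Cluster 3, counted among the other cells, was low as well. It had Rab6b at 31.6 and 32.2 CPM and Rab39 at 19.4 and 20.1.

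**Figure D4:**
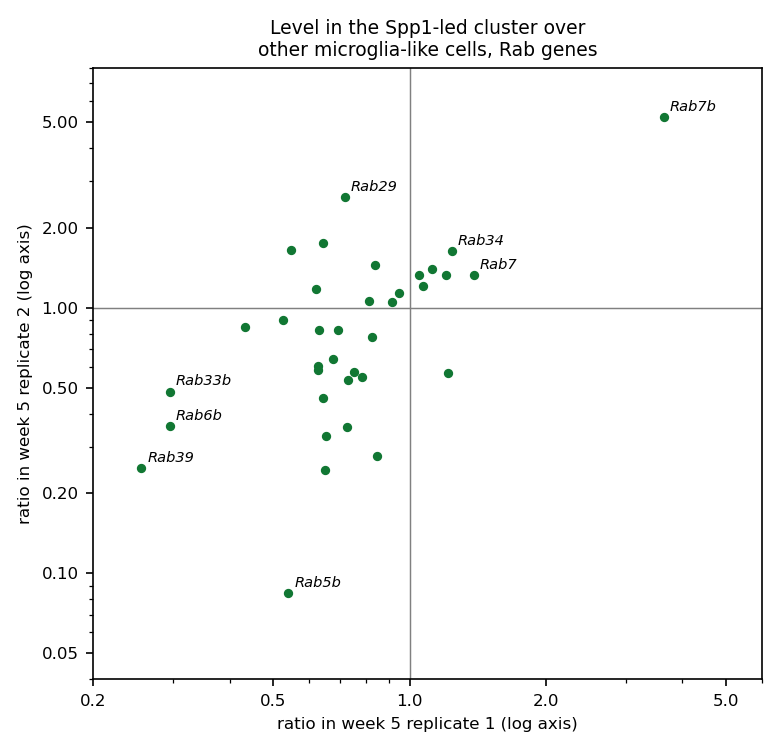
Level in the Spp1-led cluster divided by that in the other microglia-like cells of the same week 5 library (both axes logarithmic), 1 point for each of the 36 tested Rab genes with at least 10 CPM at week 5; grey lines mark equal levels. Rab7b stands at the upper right (3.64 and 5.22), Rab6b and Rab39 at the lower left, and replicate 2 rests on few UMIs for many genes (1 UMI of Rab5b).

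The macrophage-like cells are compared with microglia-like cells for some Rab levels, given as a description over all libraries. Rab27a had 2 UMIs, 4.96 CPM (Poisson 95% interval 0.601 to 17.9), against 31.9 in microglia-like cells. Rab6b was at 27.3 (13.6 to 48.8) against 74.7 CPM and Rab39 at 14.9 (5.46 to 32.4) against 51.6. These are few UMIs: without week 5 replicate 1, Rab27a was at 9.06 (1.097 to 32.7) against 36.4 CPM and Rab39 at 27.2 (9.97 to 59.1) against 67.5, and without week 0 replicate 1 Rab39 was at 9.47 against 49.5. Without week 0 replicate 2 Rab27a was at 2.68 against 29.97. Rab29, a partner of the kinase Lrrk2, was at 32.3 (17.2 to 55.2) against 12.3 CPM, with 9 of its 13 UMIs from week 5 replicate 1; without that library it was at 18.1 (4.94 to 46.4) against 12.03. These 4 were singled out after their values were seen.

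The 13 Rab genes that did not pass the filter on low counts were Rab13, Rab15, Rab25, Rab27b, Rab30, Rab33a, Rab36, Rab37, Rab38, Rab39b, Rab3c, Rab3d and Rab40b. The most counted were Rab13, with 5, 6, 17 and 6 UMIs, and Rab3d, with 4, 11, 16 and 5. Rab36 had 1, 3, 5 and 2 UMIs, Rab25 2, 3, 2 and 0, Rab40b 0, 3, 1 and 2, and Rab3c 1, 2, 2 and 0. Rab37 had 0, 0, 3 and 1, Rab30 2 in week 0 replicate 1, Rab15 2 and Rab33a 1 in week 0 replicate 2, and Rab27b and Rab38 1 each in week 5 replicate 1. Rab38, the relative of Rab32, was thus not detectable at a level that could be compared. Rab39b had 0 UMIs in microglia-like cells, which allows up to 0.19 CPM over all 4 libraries.

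The genes that load, switch off, carry or read Rab proteins were followed in lists of 130 partner genes. Of these 125 were in the tables and 109 were tested; 1 was called higher and 0 lower, with 15 at an unadjusted p under 0.05 and a median log2 fold change of -0.12. Over all genes, 1493 of 11002 had an unadjusted p under 0.05, 3.37% were called and the median was -0.02, so the partner genes did not stand out by these counts. Myo5a, the actin motor myosin Va that Rab proteins tie to vesicles, was at 18.6 and 7.62 CPM at week 0 and 71.8 and 44.3 at week 5. Both week 5 libraries were above both week 0 libraries, and the log2 fold change was 2.25 (SE 0.38, 95% interval 1.41 to 3.08, edgeR adjusted p = 0.00627). It was called in 14 of 14 other analyses, with the highest adjusted p, 0.0496, in all cells. Its level at week 0 was 13.1 ± 7.75 CPM (SD, n = 2), with replicate 1 the higher. By list, 0 of 8 chaperone and prenylation genes were called (median log2 fold change -0.11), 0 of 29 exchange factors (-0.14), 0 of 31 GTPase-activating proteins (-0.15) and 1 of 41 effectors (-0.05).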

How the data were processed

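The deposited tables hold raw UMI counts, whole numbers for each gene and barcode. Per the submitters' processing notes, the tools were Cell Ranger 3.0.0, STAR and Seurat 4, with genome build mm10. The choice of the 1000 barcodes in a table, and the counting rules for strand and overlapping genes, are not given in the sources used here. By table, barcodes reached at most 2999, 6615, 3999 and 2996 genes.

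Barcodes under 500 genes or over 10% mitochondrial UMIs were removed (272 of 4000), and 21 doublets (0.563%) were removed with scrublet. The 3707 cells were clustered with scanpy 1.11.5 (2000 variable genes, 30 components, 15 neighbours, Leiden resolution 1) into 12 clusters: 8 microglia-like with 3564 cells, 1 border-associated macrophage-like, 1 oligodendrocyte-like and 2 unnamed, with names from marker lists. The leading genes of clusters were first ranked among genes in at least 25% of a cluster's cells. There the monocyte marker Fn1 was among the 10 leading genes of the Spp1-led cluster with 0 microglia markers, which would bar a comparison of the class between times. Ranking among genes in at least 50% of the cells, chosen after this was seen, gave no such marker and the same names. Values for all cells and without the Spp1-led cluster are therefore given beside the main ones.

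UMI counts were summed per library over microglia-like cells and tested with edgeR 4.0.16 (R 4.3.3; quasi-likelihood test, TMM factors of 1.09, 1.08, 0.832 and 1.02, its own filter, Benjamini-Hochberg over all 11002 genes tested). CPM uses the effective library size, or total UMIs where stated. Test scripts were checked on simulated counts. Intervals and limits for 0 (3 counts) cover counting error only.

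Members, gene lists and tests were chosen with earlier results of these data known. Named are the Rab genes called, the 12 highest, the 8 largest rises and falls without overlap, usual compartment markers, and partners called; others are given by counts or said to be chosen after their values were seen. Alternatives were DESeq2 1.42.0, limma-voom (limma 3.58.1), other scaling, gene and cell filters, thinning to 1000 UMIs, a common limit of 2996 genes per cell, each library left out and a replicate block.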

Additional observations from a re-analysis of the deposited data

How the results depend on the processing

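Rab7b was called higher, and was the 1 Rab gene called higher, in all 14 alternatives (log2 fold change 4.68 to 9.96, adjusted p 1.96e-37 to 0.00699). The count of Rab genes called lower, 0 in the main analysis, was 1 (Rab6b) with library size as the only scaling, 1 (Rab6b) without a gene filter, and 0 to 2 when each library was left out, the 2 being Rab6b and Rab39 without week 5 replicate 2, where 1188 genes were called higher and 272 lower over the whole table. The median log2 fold change of the Rab genes was -0.285 with library size as the only scaling, which moved the median of all genes from -0.02 to -0.249, and ran from -0.11 to 0.073 with a library left out (positive without week 0 replicate 2 or week 5 replicate 2). Partner genes called higher numbered 4 without a gene filter, 3 with the replicate block, 2 with cells of all libraries held to 1 gene limit, and 1 to 8 with a library left out, the 8 without week 5 replicate 2. Partner genes called lower numbered 1 without a gene filter and 0 to 4 with a library left out. Their median was -0.349 with library size as the only scaling, -0.038 with cells thinned, and ran from -0.186 to -0.043 with a library left out. Apart from the larger number of genes tested without a filter and the scaling itself, the cause was not tested.

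With the replicate number as a block, 1 Rab gene was called higher and 0 lower (median -0.041), and over all genes 439 were called higher and 62 lower, against 335 and 36. Deviations of same-numbered libraries from their group means had r = -0.142 over 11002 genes. With 2 libraries per group, which also differ in depth and clusters, this value cannot decide whether same-numbered libraries belong together. With the crossed pairing as block, chosen after seeing the data, 1 Rab gene was called higher and 0 lower, 2 partner genes higher and 0 lower, and 421 genes higher and 45 lower in all. With a library left out, the lone sample of a group is assumed to vary like the other group. At 2 libraries per group, and with Rab genes of a few CPM, changes of modest size were not detectable. Intervals of 7 tested Rab genes other than Rab7b reached past 1 from 0 on the log2 scale. Among them were Rab6b and Rab39, with means of 77.7 and 54.3 CPM and log2 fold changes of -0.76 and -0.68. The highest mean of the others was 10.5 CPM, that of Rab3a.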
